A study of Mus musculus with 16 samples.

Results

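Apart from Psmc3ip, the 44 genes described here code for subunits of the proteasome and for proteins that cap, inhibit or assemble it. They were taken from the gene names on a mouse expression array: every name that begins with Psma, Psmb, Psmc, Psmd, Psme, Psmf or Psmg, without the 3 inducible catalytic subunits Psmb8, Psmb9 and Psmb10 and without the inducible cap subunit Psme2. A gene was kept when at least 1 of its probes lay well above background on both arrays of at least 1 group, and the brightest such probe stood for the gene. By name there were 45 genes with 71 probes. The rule kept 44 genes and 67 probes, out of 17659 genes tested on the array. The gene left out was Psmb11, a catalytic subunit known from the thymus cortex, whose 2 probes were each well above background on 1 of 16 arrays. All 44 chosen probes were well above background on all 16 arrays, so none of them entered through the LPS-treated groups alone.

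The study followed macrophages grown from the bone marrow of male C57BL/6Jax mice, wild type (WT) or lacking the microRNA miR-155 (KO), with 10 ng/mL of the macrophage growth factor M-CSF for 9 days. Both genotypes were sampled before and at 6, 12 and 24 h after addition of 100 ng/mL of LPS, a bacterial cell wall lipid that macrophages sense through a Toll-like receptor. That gave 8 groups with 2 arrays each, every array hybridised in 1 colour with RNA from bulk culture. The age of the mice is not given in the sources used here, and neither is whether the arrays of a group came from separate mice or cultures, so p-values measure only the spread between these arrays. No probe was named for miR-155 or its host transcript, so the loss of miR-155 was not checked here.

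The proteasome is the protease that degrades proteins marked with ubiquitin. Its barrel-shaped core particle has outer rings of alpha subunits, which gate the entrance, and inner rings of beta subunits, which cut the protein chain. A regulatory particle with a ring of ATPases and a lid of further subunits binds the ubiquitin chain, removes it and threads the protein into the core. In macrophages the peptides it makes are also loaded on MHC class I, and inflammatory signals are known to exchange the standard catalytic subunits for the inducible ones.

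A level is given as log2 of the scanner's processed signal minus the 75th percentile of the same array. Levels were compared only within a probe, never between probes. A difference is the log2 difference between 2 group means, with its standard error (SE) from limma fitted to all 17659 genes and all 16 arrays, and a gene rose or fell where the Benjamini-Hochberg adjusted p was under 0.05. The first array of every group was scanned in 1 session and the second in another, and arrays of the same session strayed from their group means together: these deviations correlated in 28 of 28 pairs of groups, at 0.40 to 0.84. Counts are therefore given for the fit without a session term and for the fit with it, which is the replicate block of this design. Where a statement rests on the latter fit alone it says so. The SE shown is that of the fit without the session term throughout, also beside calls made with it. The comparisons at 6, 12 and 24 h share the 0 h arrays of their genotype. The WT and KO comparisons share no arrays.

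All 10 macrophage markers, among them Adgre1, Csf1r and Cd68, were well above background on all 16 arrays. Defining markers of other cells, Elane for neutrophils, Ebf1 for B cells, Ncr1 for NK cells, Alas2 for red cell precursors, Cpa3 for mast cells and Pdgfra for stroma, were well above background on none. Summed levels, in multiples of the array's 75th percentile, were 847 to 2700 for the macrophage markers, 3.17 to 46.7 at 0 h and 0.643 to 10.6 at 24 h for 7 neutrophil markers, and at most 2.36 for each of the B cell, T and NK cell, erythroid, mast cell and stromal lists. The erythroid sum moved with LPS, from 0.939 to 2.28 at 0 h to 0.24 to 0.338 at 6 h, and the stromal sum from 0.639 to 0.88 to 0.983 to 2.01. Their part in the differences below was not tested. In bulk RNA, a change in cell number and a change in RNA per cell cannot be told apart.

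As a group, the proteasome genes were higher after LPS in both genotypes and at all 3 times. With each gene centred on its mean over the 16 arrays, the median of the 44 genes was -0.62 and -0.58 on the WT arrays at 0 h, and -0.48 and -0.44 on the KO arrays at 0 h. On the WT arrays it was -0.04 and 0.20 at 6 h, 0.07 and 0.34 at 12 h, and 0.09 and 0.16 at 24 h. On the KO arrays it was -0.06 and 0.41 at 6 h, 0.23 and 0.22 at 12 h, and 0.05 and 0.22 at 24 h. Every array after LPS thus lay above every 0 h array, while the median of all genes ran between -0.13 and 0.23 and separated the first arrays from the second ones rather than the times.

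**Figure D1:**
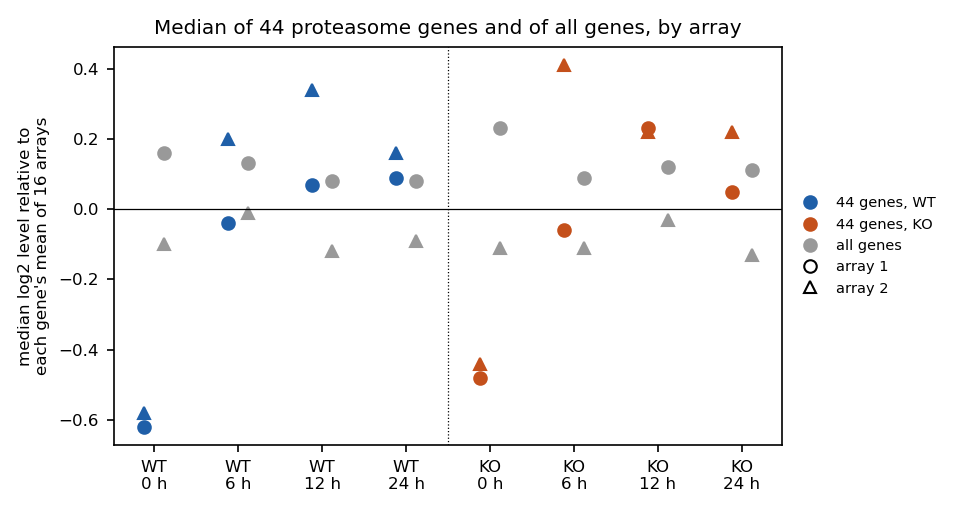
Median log2 level of the 44 proteasome genes (coloured) and of all 17659 genes (grey) on each array, each gene centred on its mean over 16 arrays, by genotype and hours of LPS. Circles are the first and triangles the second array of a group. The 4 arrays at 0 h lie between -0.62 and -0.44, and the 12 arrays after LPS between -0.06 and 0.41.

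In WT cells the median difference from 0 h of the 44 genes was 0.62 at 6 h, 0.81 at 12 h and 0.77 at 24 h, beside 0.03, -0.03 and -0.03 over all genes. In KO cells it was 0.59, 0.71 and 0.65, beside -0.02, 0.03 and -0.04. Of the 44 genes, 38 lay above 0 at 6 h in WT cells (86.4%, against 51.1% of all genes). The lower tail at 6 h held few members. They belong to the alternative alpha subunit, the assembly chaperones, the subunit Psmd1 and Psmc3ip, described below. Psmc3ip, which is not a proteasome protein, was the lowest at -1.25.

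At 6 h in WT cells 14 of the 44 genes rose (31.8%, against 12.4% of all genes) and none fell (13.2% of all genes fell). With the session term 23 rose (52.3%, against 22.8% of all genes) and 3 fell (against 22.6%). At 12 h 16 rose (36.4%, against 9.58%) and none fell (against 9.78%), and with the session term 29 rose (65.9%, against 18.3%) and 2 fell (against 19.3%). At 24 h 7 rose (15.9%, against 5.53%) and none fell (against 5.37%), and with the session term 28 rose (63.6%, against 13.1%) and 1 fell (against 14.2%). The share of members that rose was above the background share at each time in both fits, and the share that fell was below it.

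The KO cells gave like counts. At 6 h 12 genes rose (27.3%, against 12.0% of all genes) and none fell (against 14.2%), and with the session term 21 rose (47.7%, against 20.3%) and 4 fell (against 23.4%). At 12 h 11 rose (25.0%, against 9.24%) and none fell (against 10.1%), and with the session term 27 rose (61.4%, against 19.1%) and 1 fell (against 19.2%). At 24 h 6 rose (13.6%, against 4.86%) and none fell (against 5.03%), and with the session term 21 rose (47.7%, against 11.3%) and none fell (against 12.7%). By limma without the session term, members lower at an unadjusted p under 0.05 numbered 3, 2 and 0 at 6, 12 and 24 h in WT cells and 3, 0 and 0 in KO cells. All 12 genes that rose in KO cells at 6 h were among the 14 of WT cells, and all 11 at 12 h were among the 16. At 24 h 5 genes were shared, 71.4% of the WT list and 83.3% of the KO list. No share of all genes is given beside these overlaps or the unadjusted counts, so neither sets the members apart.

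These counts rested on few arrays. Shares of all genes are not given for the fits without 1 array, so the counts there do not set the members apart. Without the first or the second WT array at 0 h, 8 and 8 genes rose in WT cells at 6 h, 8 and 6 at 12 h, and 4 and 2 at 24 h. Without the first or second WT array at 6 h the count at 6 h was 9 and 8, and it was 7 at 12 h without the second WT array at 12 h and 3 at 24 h without the second at 24 h. In KO cells 7 genes rose and 1 fell at 6 h without the second array at 6 h. At 12 h the KO count was 6 and 7 without the first or second array at 12 h, and 5 without the second at 0 h. At 24 h it was 3 and 1 without the first or second array at 0 h, and 3 and 2 without the first or second at 24 h.

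The size of the group's difference, and at 6 h most of it, depended on how the arrays were scaled. Under quantile normalization the median of the 44 genes was 0.08, 0.33 and 0.56 at 6, 12 and 24 h in WT cells and 0.05, 0.30 and 0.44 in KO cells, beside -0.15, -0.08, -0.01, -0.13, -0.05 and -0.01 over all genes. With normexp background correction before it, the medians were 0.09, 0.25 and 0.51 in WT cells and 0.09, 0.31 and 0.43 in KO cells. In WT cells at 6 h, quantile normalization called 6 genes higher and 1 lower, and in KO cells normexp called 8 higher and 2 lower. Shares of all genes called under these scalings are not given, so these counts do not set the members apart. Scaling to each array's median moved the median of all genes by 0.09 to 0.36 and left the gap between the members and all genes at 0.59 to 0.84. Of the 66 rises of single members over the 6 comparisons, 44 missed the threshold with median scaling, 37 under quantile normalization and 19 with normexp, while none missed it with the session term.

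**Figure D2:**
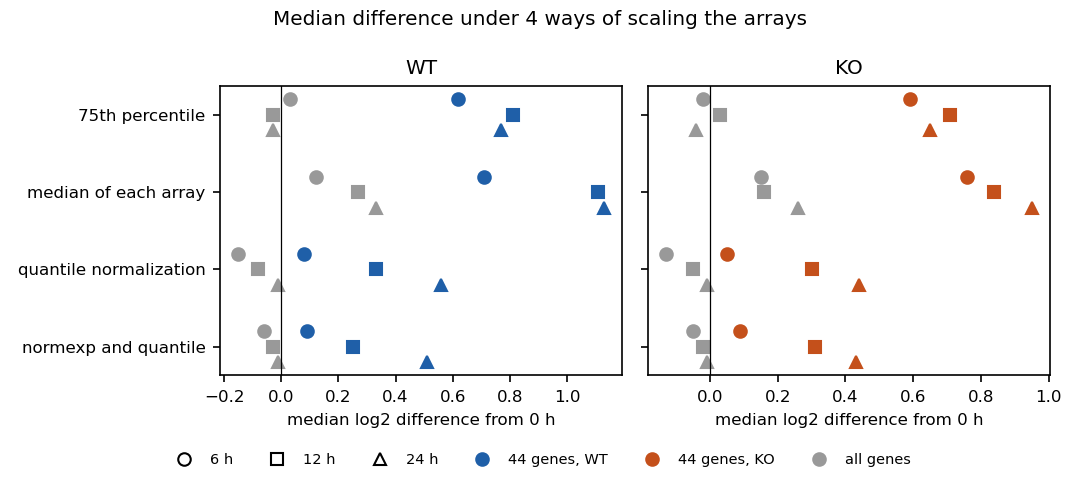
Median log2 difference from 0 h of the 44 proteasome genes (coloured) and of all genes tested (grey) at 6, 12 and 24 h of LPS, in WT and KO cells, under 4 ways of scaling the arrays. Under both quantile settings the 6 h medians of the members lie between 0.05 and 0.09, and the 24 h medians between 0.43 and 0.56.

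Psma5, Psma6, Psmd10, Psmd11 and Psme1 rose at all 3 times in both genotypes. A further 14 genes rose in at least 1 of the 6 comparisons. With the session term 15 genes rose in all 6 comparisons and 32 in at least 1. The 12 genes that rose in none by that fit were Psma8, Psmc3, Psmc3ip, Psmd1, Psmd5, Psmd8, Psmd9, Psme3, Psmf1, Psmg1, Psmg2 and Psmg4. No share of all genes is given beside these counts over the 6 comparisons, so they do not set the members apart from other genes.

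**Figure D3:**
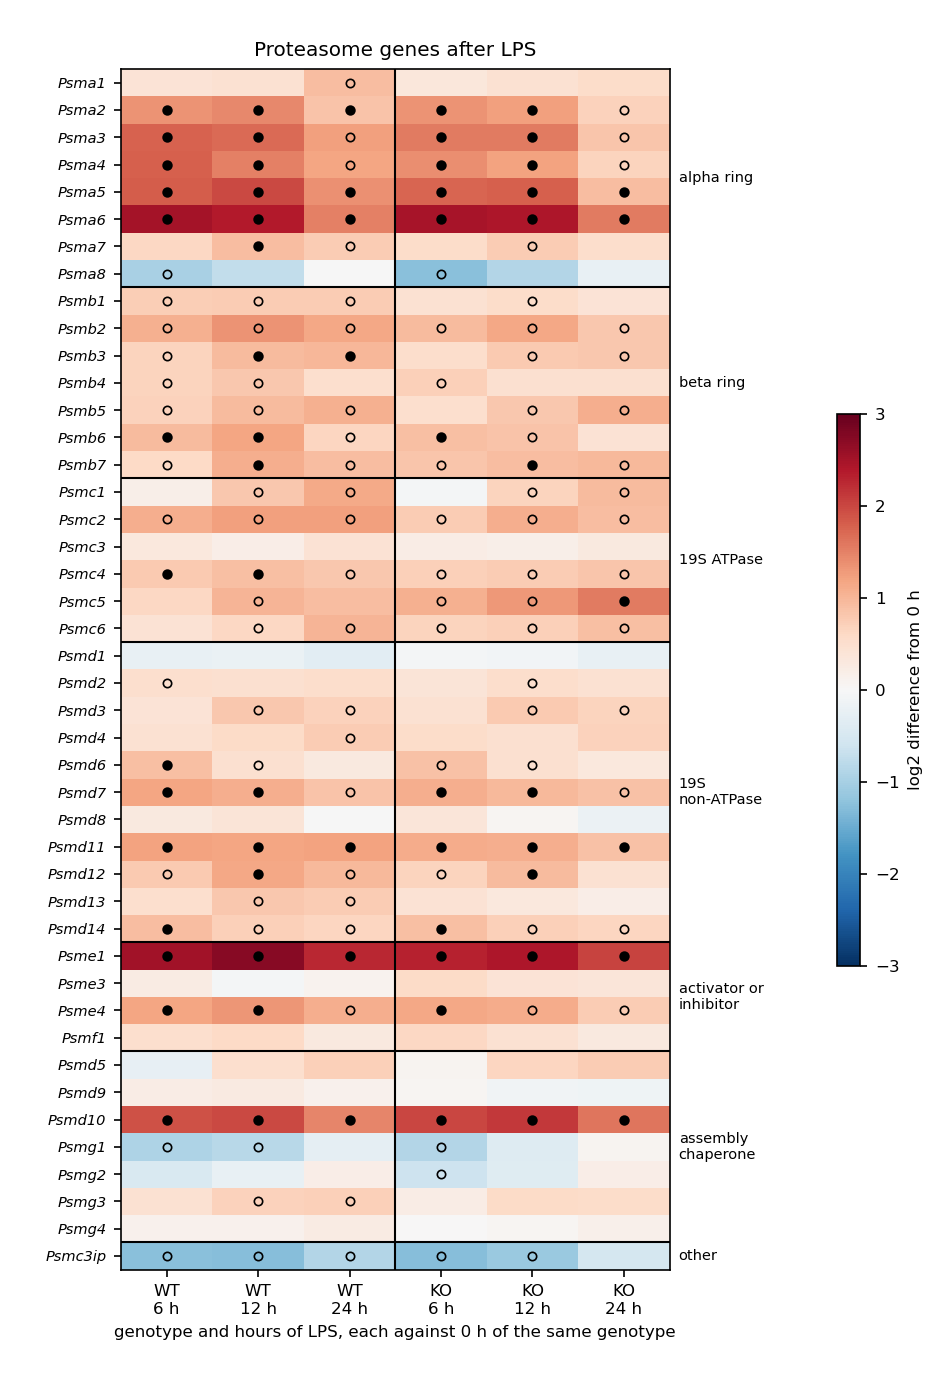
Log2 difference from 0 h of each of the 44 genes (rows, grouped by role) in WT and KO cells after 6, 12 and 24 h of LPS, on a colour scale from -3 to 3. A filled dot marks an adjusted p under 0.05 without the session term, an open dot only with it. The deepest red cells are Psme1, Psma6 and Psmd10, and the blue cells are mainly Psma8, Psmg1, Psmg2, Psmd1 and Psmc3ip.

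Probes for 2 of the 5 genes that rose throughout are shown, since their 60 bases are what the array measured. Psma6 was read by a probe at chr12:56511127-56511186 on the plus strand and Psmd10 by a probe at chrX:137483747-137483806 on the minus strand (mm9, as the array's design file gives them). Neither has a letter in capitals, since no part of a probe was singled out. The exon of each was not determined, as no mm9 annotation was used here.

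Psma6 probe: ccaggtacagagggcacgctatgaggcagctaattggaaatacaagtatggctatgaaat

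Psmd10 probe: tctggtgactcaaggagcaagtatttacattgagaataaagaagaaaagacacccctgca

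Of the 8 genes of the alpha ring, 5 rose at 6 h, 6 at 12 h and 3 at 24 h in WT cells, and 5, 5 and 2 in KO cells, with ring medians of 1.56, 1.48 and 1.05 in WT cells and 1.37, 1.21 and 0.67 in KO cells. The session term gave 5, 6 and 7 rises in WT cells and 5, 6 and 5 in KO cells, and 1 alpha gene fell at 6 h in each genotype. Psma2, Psma3, Psma4, Psma5 and Psma6 made up the 5 at 6 h in both genotypes, with WT differences between 1.34 and 2.5. Psma1, at 0.42 at 6 h and 0.92 at 24 h in WT cells, did not pass without the session term and rose at 24 h in WT cells with it. Counts by role group, here and below, are to be read beside the shares of all genes that rose. These were 12.4%, 9.58% and 5.53% at 6, 12 and 24 h in WT cells and 12.0%, 9.24% and 4.86% in KO cells. The session term gave 22.8%, 18.3% and 13.1% in WT cells and 20.3%, 19.1% and 11.3% in KO cells. A count of 0 or 1 does not set a role group apart from all genes.

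Psma6, an alpha subunit of every standard core, had WT levels of 3.95 and 3.98 at 0 h, 6.29 and 6.64 at 6 h, 5.96 and 6.76 at 12 h, and 5.19 and 5.77 at 24 h. Its KO levels were 4.15 and 4.16, then 6.31 and 6.96, 6.41 and 6.77, and 5.52 and 5.91. All arrays after LPS were above all 0 h arrays in both genotypes, and the 24 h arrays lay between the 0 h and the earlier LPS arrays. Psma6 rose by 2.5 ± 0.36 (SE) at 6 h in WT cells, 5.65-fold (adjusted p 0.000652, limma), by 2.39 ± 0.36 at 12 h and by 1.52 ± 0.36 at 24 h (adjusted p 0.0209). In KO cells it rose by 2.48, 2.43 and 1.55. The call at 24 h in WT cells was lost without the first or second WT array at 0 h (adjusted p 0.0886 and 0.107) or the second at 24 h (0.187), and kept with the session term (0.00103). That in KO cells was lost without the first or second KO array at 0 h (0.0832 and 0.103) or the second at 24 h (0.152).

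Psma5, another alpha subunit, stood at 4.71 and 4.30 at 0 h in WT cells and at 6.46 and 6.17 at 6 h, 6.44 and 6.53 at 12 h, and 5.93 and 5.85 at 24 h. The KO levels were 4.91 and 4.53, then 6.50 and 6.45, 6.60 and 6.42, and 5.72 and 5.56. No LPS array overlapped the 0 h arrays. It rose by 1.81, 1.98 and 1.38 (SE 0.25) in WT cells and by 1.75, 1.79 and 0.92 in KO cells. The adjusted p at 24 h in KO cells was 0.0435, and that call was lost in 14 of the 16 fits that left out 1 array. The call at 24 h in WT cells was lost without the second WT array at 0 h (adjusted p 0.0595).

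Psma8, an alternative alpha subunit known from the testis, went the other way. Its WT levels were -1.82 and -1.22 at 0 h, -2.77 and -2.23 at 6 h, -2.26 and -2.26 at 12 h, and -1.29 and -1.77 at 24 h. The KO levels were -1.48 and -0.73, then -2.98 and -1.75, -2.10 and -1.90, and -1.27 and -1.39. The arrays at 6 and 12 h lay below those at 0 h in both genotypes, and those at 24 h overlapped them. The differences at 6 h were -0.98 ± 0.43 in WT and -1.26 ± 0.43 in KO cells, which missed the threshold without the session term (adjusted p 0.128 and 0.0554) and passed with it (0.0492 and 0.0179).

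The beta ring moved as a block of smaller, similar differences. All 7 genes lay above 0 at each time in both genotypes, between 0.59 and 1.07 at 6 h and between 0.77 and 1.35 at 12 h in WT cells. Without the session term 1 rose at 6 h, 3 at 12 h and 1 at 24 h in WT cells, and 1, 1 and 0 in KO cells. With it all 7 rose at 6 and 12 h in WT cells and 6 at 24 h, and 4, 6 and 4 rose in KO cells. At 6 h the direction was not the same in every scaling: Psmb3 and Psmb4 stood at -0.11 each under quantile normalization in WT cells.

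The standard catalytic subunits are Psmb5, Psmb6 and Psmb7, whose activities cut after hydrophobic, acidic and basic residues. Psmb6 rose at 6 h in both genotypes, by 0.96 ± 0.28 in WT and 0.90 ± 0.28 in KO cells, and at 12 h in WT cells by 1.18. Psmb7 rose at 12 h by 1.09 ± 0.29 in WT and 0.93 ± 0.29 in KO cells. Psmb5 differed by 0.69, 0.95 and 1.06 (SE 0.47) in WT cells and passed only with the session term. The inducible catalytic subunits that replace them, Psmb9, Psmb10 and Psmb8, rose by 3.35, 2.99 and 3.42 at 12 h in WT cells and by 3.0, 2.74 and 3.14 in KO cells.

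Psmb2, a structural beta subunit, had WT levels of 1.52 and 1.72 at 0 h, 2.23 and 3.15 at 6 h, 2.62 and 3.32 at 12 h, and 2.41 and 3.16 at 24 h. In KO cells the levels were 1.92 and 1.76, then 2.42 and 3.15, 2.62 and 3.36, and 2.39 and 2.94. Every LPS array lay above every 0 h array, and among the LPS arrays the second of each pair was the higher. Its 12 h difference in WT cells was 1.35 ± 0.45, with an adjusted p of 0.0617 without and 0.00301 with the session term.

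Psmb4, the beta subunit with the smallest 12 h difference over both genotypes, stood at 5.89 and 5.87 at 0 h in WT cells, 6.67 and 6.44 at 6 h, 6.65 and 6.71 at 12 h, and 6.44 and 6.31 at 24 h. Its KO levels were 6.15 and 5.95, then 6.60 and 6.94, 6.8 and 6.26, and 6.64 and 6.46. The LPS arrays did not overlap the 0 h arrays in either genotype. Its 12 h difference of 0.80 ± 0.26 in WT cells had an adjusted p of 0.0528 without and 0.0147 with the session term.

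Of the 6 ATPases that unfold the substrate, 4 had their highest mean at 24 h and 2 at 12 h in WT cells, and 5 and 1 in KO cells. The 24 h mean was also the highest in 4 of 7 assembly chaperones in each genotype, in 2 of 7 beta genes in WT and 3 in KO cells, and in 1 of 8 alpha genes in each. These are orders of group means as scaled here and were not tested, and the quantile settings lower the 6 h medians. Psmc4 rose at 6 and 12 h in WT cells, by 0.78 and 0.90 (SE 0.24), and Psmc5 at 24 h in KO cells. With the session term 2, 5 and 4 ATPases rose at 6, 12 and 24 h in WT cells and 4, 5 and 5 in KO cells.

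Psmc5 had WT levels of 3.36 and 2.80 at 0 h, 3.87 and 3.55 at 6 h, 4.37 and 3.84 at 12 h, and 3.94 and 4.09 at 24 h. In KO cells the 0 h arrays were far apart, at 3.51 and 2.14, and the later ones at 3.86 and 3.93, 4.43 and 3.83, and 4.37 and 4.41. No LPS array overlapped the 0 h arrays, although the first KO array at 0 h came close. Psmc5 rose by 1.56 ± 0.43 at 24 h in KO cells (adjusted p 0.0453). The call was lost in 15 of the 16 fits that left out 1 array, and without the second KO array at 0 h the difference was 0.88 (adjusted p 0.295).

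Psmc1 was described after its values were seen, as the ATPase with the steepest late course. Its WT levels were 4.09 and 4.51 at 0 h, 4.33 and 4.60 at 6 h, 4.86 and 5.36 at 12 h, and 5.22 and 5.64 at 24 h. In KO cells they were 4.32 and 4.68, then 4.07 and 4.79, 5.22 and 5.11, and 5.18 and 5.70. The 6 h arrays overlapped the 0 h arrays and the 12 and 24 h arrays lay above them. With the session term it rose at 12 h by 0.82 and at 24 h by 1.13 ± 0.34 in WT cells and by 0.67 and 0.94 in KO cells, and no comparison passed without it.

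Psmc3, the ATPase with the smallest 12 h difference, stood at 2.82 and 3.25 at 0 h in WT cells, 2.91 and 3.79 at 6 h, 2.90 and 3.59 at 12 h, and 3.37 and 3.58 at 24 h. KO levels were 2.86 and 3.43, then 2.87 and 3.88, 3.06 and 3.58, and 3.26 and 3.64. Only the WT arrays at 24 h lay clear of those at 0 h. Its 12 h difference in WT cells was 0.21 ± 0.44, and it was -0.22 under quantile normalization, so no direction is given for it.

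**Figure D4:**
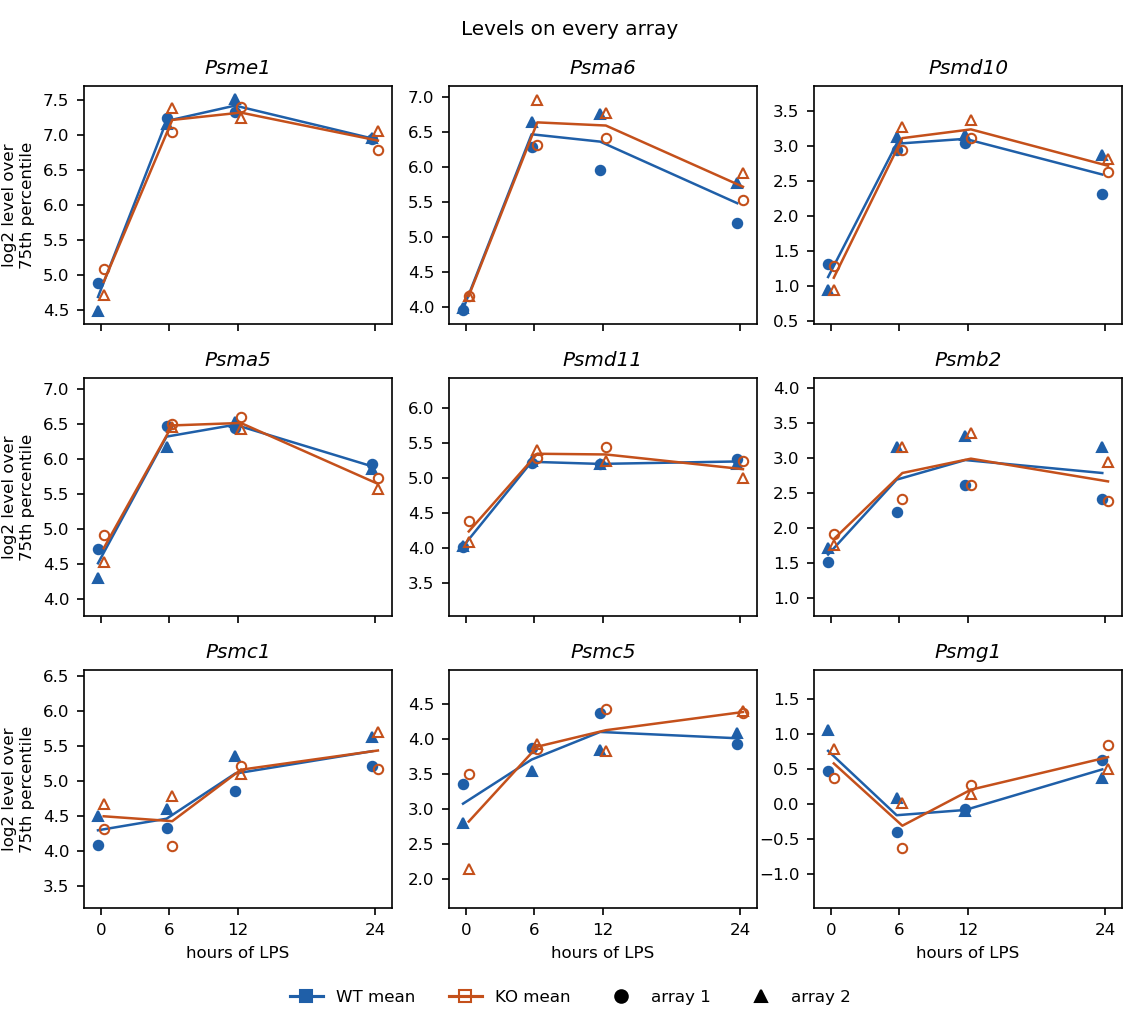
Log2 level over the array's 75th percentile on every array against hours of LPS, for 9 genes, WT in blue and KO in orange. Circles are the first and triangles the second array of a group, lines join group means, and all panels span the same range. Psme1, Psma6, Psmd10, Psma5 and Psmd11 are high from 6 h on, Psmc1 from 12 h on, and Psmg1 is lowest at 6 h.

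The lid and the scaffold of the regulatory particle held 11 genes. In WT cells 4 rose at 6 h, 3 at 12 h and 1 at 24 h, and in KO cells 3, 3 and 1. With the session term 6, 7 and 7 rose in WT cells and 5, 7 and 4 in KO cells, and none fell from 0 h. Psmd14, the enzyme that cuts the ubiquitin chain off the substrate, rose at 6 h by 0.92 ± 0.29 in WT and 0.90 ± 0.29 in KO cells. Its partner Psmd7 rose at 6 h by 1.18 and 1.08 and at 12 h by 1.1 and 0.97 (SE 0.25). The ubiquitin receptor Psmd4 differed by 0.45, 0.58 and 0.77 (SE 0.26) in WT cells and passed only at 24 h with the session term.

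Psmd11, the lid subunit that clamps the regulatory particle to the core, stood at nearly the same height at all 3 times. Its WT levels were 4.01 and 4.02 at 0 h, 5.21 and 5.24 at 6 h, 5.19 and 5.20 at 12 h, and 5.27 and 5.19 at 24 h. In KO cells they were 4.38 and 4.08, then 5.28 and 5.40, 5.43 and 5.23, and 5.24 and 5.0. All LPS arrays lay above all 0 h arrays. It rose by 1.21, 1.18 and 1.21 (SE 0.22) in WT cells, with adjusted p-values of 0.00279, 0.00439 and 0.00597, and by 1.11, 1.1 and 0.89 in KO cells. The KO call at 12 h was lost without the second KO array at 0 h (adjusted p 0.061), and that at 24 h without either KO array at 0 h (0.0561 and 0.204) or at 24 h (0.139 and 0.0854). Under quantile normalization its 6 h difference was 0.51 in WT cells (adjusted p 0.107).

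Psmd12, a lid subunit, stood at 4.32 and 4.39 at 0 h in WT cells, 5.05 and 5.25 at 6 h, 5.33 and 5.69 at 12 h, and 5.12 and 5.54 at 24 h. Its levels in KO cells were 4.44 and 4.67, then 4.96 and 5.48, 5.35 and 5.69, and 4.74 and 5.29. The LPS arrays lay above the 0 h arrays in both genotypes. It rose at 12 h by 1.15 ± 0.30 in WT (adjusted p 0.0237) and by 0.96 ± 0.30 in KO cells (0.0491). The WT call was lost without either WT array at 0 h (0.0997 and 0.0957) or the second at 12 h (0.158), and the KO call in 12 of the 16 fits that left out 1 array.

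Psmd1, a large scaffold subunit, did not follow the other lid and scaffold genes. Its WT levels were 3.0 and 2.61 at 0 h, 2.42 and 2.72 at 6 h, 2.79 and 2.44 at 12 h, and 2.54 and 2.45 at 24 h. In KO cells they were 3.32 and 2.51, then 2.90 and 2.84, 2.99 and 2.67, and 2.59 and 2.81. The groups overlapped, apart from the WT arrays at 24 h. Its differences ran from -0.31 to -0.05 (SE 0.31), none passed in either fit, and the 12 h value in WT cells was 0.11 when the arrays were scaled to their median.

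Besides the regulatory particle, the core can carry the caps made of Psme1 and Psme2 (PA28 alpha and beta), of Psme3 (PA28 gamma, found in the nucleus) or of Psme4 (PA200). Psme1 had the largest difference of the 44 genes in each WT comparison. Its WT levels were 4.88 and 4.48 at 0 h, 7.24 and 7.15 at 6 h, 7.32 and 7.51 at 12 h, and 6.94 and 6.95 at 24 h. In KO cells they were 5.08 and 4.71, then 7.04 and 7.38, 7.39 and 7.24, and 6.78 and 7.05. The LPS arrays lay far above the 0 h arrays in both genotypes.

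Psme1 rose by 2.51 ± 0.26, 2.73 ± 0.26 and 2.26 ± 0.26 in WT cells, which is 5.70-fold, 6.64-fold and 4.80-fold (adjusted p 9.16e-05, 7.15e-05 and 0.000376, limma). In KO cells it rose by 2.32, 2.42 and 2.03. Every one of these 6 calls was kept when any 1 array was left out. Its partner in the cap, Psme2, rose by 2.83, 2.59 and 1.94 in WT cells and by 2.67, 2.72 and 1.97 in KO cells. The probes of both genes lie 6.08 kb apart on chromosome 14 (mm9).

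Psme4 rose at 6 h by 1.18 ± 0.36 in WT and 1.17 ± 0.36 in KO cells and at 12 h in WT cells by 1.33. The inhibitor Psmf1 (PI31) differed by 0.51, 0.60 and 0.29 (SE 0.38) in WT cells and passed in neither fit.

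Psme3 stood at 1.64 and 1.69 at 0 h in WT cells, 2.06 and 1.76 at 6 h, 1.69 and 1.5 at 12 h, and 1.79 and 1.75 at 24 h. The KO arrays gave 1.86 and 1.15, then 2.49 and 1.65, 2.02 and 1.82, and 1.85 and 1.90. The groups overlapped in KO cells at all 3 times and in WT cells at 12 h. Its 12 h difference in WT cells was -0.07 ± 0.33, with 0.23 under median scaling, and no comparison passed in either fit.

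The 7 assembly chaperones split. Psmd10 rose at every time in both genotypes, and none of the others passed without the session term. With it, Psmg3 rose at 12 and 24 h in WT cells, by 0.70 and 0.71 (SE 0.26), Psmg1 fell at 6 and 12 h in WT cells and at 6 h in KO cells, and Psmg2 fell at 6 h in KO cells, by 0.63 ± 0.31. Psmg1 to Psmg4 are the chaperones that build the core's alpha ring, while Psmd5, Psmd9 and Psmd10 escort the ATPases.

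Psmd10, also called gankyrin, had WT levels of 1.31 and 0.95 at 0 h, 2.94 and 3.13 at 6 h, 3.05 and 3.16 at 12 h, and 2.31 and 2.88 at 24 h. In KO cells they were 1.29 and 0.95, then 2.95 and 3.28, 3.11 and 3.37, and 2.63 and 2.81. The LPS arrays did not overlap the 0 h arrays. It rose by 1.91, 1.98 and 1.47 (SE 0.28) in WT cells and by 2.0, 2.12 and 1.60 in KO cells, with an adjusted p of 0.000813 at 6 h in WT cells. The call at 24 h in WT cells was lost without the second WT array at 0 h (0.0754) or at 24 h (0.0883), and that in KO cells without the second KO array at 0 h (0.0552).

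Psmg1 stood at 0.46 and 1.05 at 0 h in WT cells, -0.41 and 0.08 at 6 h, -0.08 and -0.10 at 12 h, and 0.62 and 0.36 at 24 h. On KO arrays it stood at 0.37 and 0.78, then -0.64 and 0.01, 0.26 and 0.14, and 0.84 and 0.49. The 6 and 12 h arrays lay below the 0 h arrays in both genotypes and the 24 h arrays overlapped them. Its 6 h differences were -0.92 ± 0.33 in WT and -0.89 ± 0.33 in KO cells, with adjusted p-values of 0.0644 and 0.0728 without and 0.0251 and 0.0299 with the session term.

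The name rule also took in Psmc3ip, which binds Psmc3 but is known as a factor of meiotic recombination and not as a proteasome protein. Its WT levels were -1.19 and -0.23 at 0 h, -2.51 and -1.42 at 6 h, -2.17 and -1.78 at 12 h, and -1.97 and -1.24 at 24 h. In KO cells they were -1.02 and -0.60, then -2.66 and -1.51, -2.20 and -1.66, and -1.54 and -1.13. The LPS arrays lay below the 0 h arrays throughout. Its differences of -1.25, -1.27 and -0.89 (SE 0.52) in WT cells passed only with the session term (adjusted p 0.0023, 0.0028 and 0.0232).

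Between 6 and 24 h of LPS the median difference of the 44 genes was 0.06 in WT and -0.09 in KO cells, beside -0.15 and -0.10 over all genes. Without the session term no member passed in WT cells (5.86% of all genes were higher and 4.72% lower) or in KO cells (7.29% and 5.73%), and 4 and 8 members had an unadjusted p under 0.05. With it 4 rose and 4 fell in WT cells (against 14.3% and 15.4% of all genes) and 4 rose and 7 fell in KO cells (against 16.5% and 15.5%). This interval depended on the scaling, and the shares of all genes called under the other scalings are not given. With normexp before quantile normalization 7 members rose in WT and 4 in KO cells, under quantile normalization alone 1 rose in each, and none fell in either, without a session term. Under quantile normalization the median difference from 0 h was 0.08 at 6 h and 0.56 at 24 h in WT cells, and 0.05 and 0.44 in KO cells.

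In WT cells Psma3, Psma4, Psma6 and Psmd6 fell with the session term, by 0.54, 0.61, 0.98 and 0.61. In KO cells Psma2, Psma3, Psma4, Psma5, Psma6, Psmd6 and Psmd8 fell, by 0.54 to 0.93. The genes that rose were Psmc1, Psmc6, Psmd5 and Psmg2 in WT cells, by 0.57 to 0.96, and Psmc1, Psmc3ip, Psmg1 and Psmg2 in KO cells, by 0.75 to 1.01. Of the genes that fell, 3 in WT and 5 in KO cells were alpha genes. No difference between role groups was tested.

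The KO cells did not differ from WT cells in any of these genes at the threshold. By limma, 0 of 44 genes passed at 0, 6, 12 and 24 h, where 0%, 0%, 0.0113% and 0% of all genes did. None passed on the mean over 4 times (0.0170% of all genes) or in the joint F test of the genotype difference in the LPS response (0% of all genes). With the session term again none passed, beside 0.00566%, 0.0113%, 0.0170% and 0% of all genes at the 4 times, 0.0227% on the mean and 0.00566% in the F test. No member had an unadjusted p under 0.05 in the comparisons of KO with WT.

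The 95% intervals of single genes give a range for each difference and are not adjusted for the number of genes tested. A call needed an adjusted p under 0.05, and so a difference larger than the half-width of its interval. On the mean over 4 times the differences KO minus WT ran from -0.15 to 0.25, and their 95% intervals stayed within -0.65 and 0.73. The gene with the largest was Psma8, at 0.25 (95% interval -0.23 to 0.73). At a single time the median half-width of the interval was 0.70. For the difference in LPS response it was 0.98, and the largest such difference was 0.63 (-0.71 to 1.98) for Psmc5 at 24 h, the gene whose KO arrays at 0 h were far apart. The 3 genes with the smallest p in the joint F test were Psma5, Psmd12 and Psmg1, and that of Psma5 was 0.573 before adjustment.

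Across the 44 genes the differences from 0 h in WT and KO cells had a Pearson correlation of 0.97 at 6 h, 0.97 at 12 h and 0.90 at 24 h, beside 0.96, 0.94 and 0.93 across all genes. The points share the scan sessions and the scaling, and genes are not independent replicates. The KO difference was the smaller in 30, 33 and 29 of the 44 genes, with a median gap of -0.07, -0.14 and -0.12. Over all genes the median gap was -0.05, -0.01 and -0.02. The KO minus WT response was above 0 in 31.8%, 25.0% and 34.1% of the members, against 42.3%, 49.0% and 47.8% of all genes. These gaps contain the genotype difference at 0 h, so they are not separate from it. At 0 h 36 of the 44 genes were higher in KO than in WT cells, with a median of 0.14 (54.1% of all genes were higher). At 6 h 34 were (77.3%, against 46.2% of all genes), at 12 h 29 (65.9%, against 53.1%) and at 24 h 22, and on the mean over 4 times 35 (79.5%, against 49.9% of all genes), with a median of 0.05. No single gene passed the threshold.

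**Figure D5:**
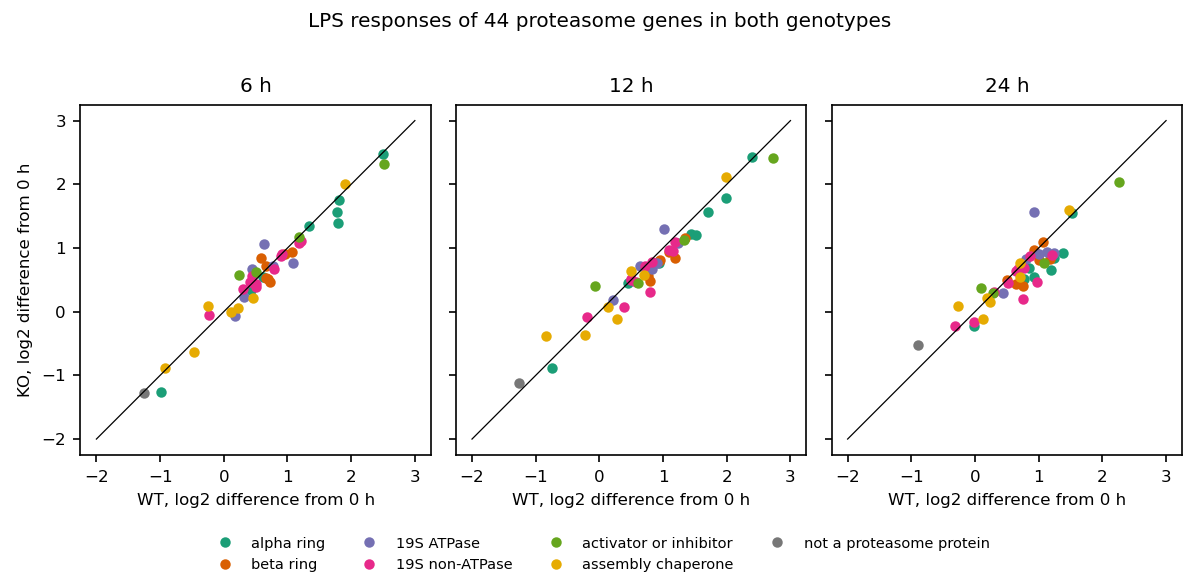
Log2 difference from 0 h in KO cells against that in WT cells for the 44 genes at 6, 12 and 24 h of LPS, coloured by role, with the line of equal response. The points follow the line with correlations of 0.97, 0.97 and 0.90.

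Other genes of the pathway were read against the same shares of all genes as the members (12.4% higher and 13.2% lower at 6 h in WT cells, 9.58% and 9.78% at 12 h). In KO cells 12.0% of all genes were higher at 6 h and 9.24% at 12 h, and with the session term 22.8% and 18.3% were in WT and 20.3% and 19.1% in KO cells. Of 18 tested genes for further subunits and bound proteins, 2 rose and 3 fell at 6 h in WT cells and 2 rose and 2 fell at 12 h, with a median of 0.38 at 12 h. Fitted with the session term, 4 rose and 3 fell at 6 h, and 6 rose and 2 fell at 12 h. In KO cells 2 rose and 2 fell at 6 h and 1 rose and 2 fell at 12 h, and with the session term 7 rose and 3 fell, then 6 rose and 2 fell. The shuttle protein Ubqln1 rose at 12 h by 1.18 ± 0.27 and Fbxo7, the ubiquitin ligase subunit that binds PI31, by 1.55 ± 0.45. The other shuttle protein Ubqln2 fell by 1.39 ± 0.34. Ddi2, the protease that activates the transcription factor Nfe2l1, fell by 2.88 ± 0.28 at 6 h and by 1.15 ± 0.28 at 12 h in WT cells and by 3.19 and 1.19 in KO cells. Pomp, which matures the core, differed by 0.80, 0.88 and 0.65 (SE 0.32) in WT cells and passed only with the session term. Adrm1, a ubiquitin receptor, and Usp14, a ubiquitin-removing enzyme on the regulatory particle, passed in neither fit, at 0.46 ± 0.44 and -0.45 ± 0.39 at 12 h in WT cells.

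Among the 19 genes of ubiquitin supply, 8 rose and none fell at 6 h in WT cells, and 4 rose and 1 fell at 12 h, with a median of 0.81 at 12 h. Fitted with the session term, 13 rose and 1 fell at each of these times. In KO cells 7 rose at 6 h and none fell, and 1 rose and 1 fell at 12 h, and with the session term 11 rose and 1 fell at each time. Ubb, a polyubiquitin gene, rose by 0.99 ± 0.26 at 12 h. The conjugating enzymes Ube2l3 and Ube2l6 rose by 1.42 and 3.48, and Ube2c, which acts in mitosis, fell by 3.14 ± 0.59. Of the 17 genes for control of subunit transcription, 5 rose at 6 h and 4 at 12 h in WT cells and none fell, with a median of 0.14 at 12 h. The session term gave 7 and 5 rises. In KO cells 4 and 2 rose, and with the session term 7 and 6 rose and 1 fell at 12 h. Nfe2l1, the factor known to induce proteasome genes when the proteasome is inhibited, rose by 0.87 ± 0.26 at 12 h and 1.02 ± 0.26 at 24 h in WT cells (adjusted p 0.0381 and 0.0284), and in KO cells it stood at 0.78 and 0.88 (0.0564 and 0.0566), which passed with the session term (0.00552 and 0.00483). Nfe2l2 differed by 0.05 ± 0.38 at 12 h. Keap1, Mafk and Stat3 rose at 12 h in WT cells by 2.41, 1.73 and 2.61.

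The promoters of some members are shown with motifs that were searched for in them. Any part of these motifs in the differences above was not tested. The 300 bases around each start, 250 before it and 50 after it, were available from RefSeq (GRCm38.p6) for 36 of the 44 genes, with 38 promoters. The letters TGACNNNGC, the core of the antioxidant response element, were found on either strand in 6 of 38 (15.8%), beside 12.4% of all 32851 promoters. The motif of interferon regulatory factors, GAAA, any 2 letters and GAAA again, was in 5 (13.2%, beside 3.44%), those of Psmb3, Psmd4, Psmd9, Psme1 and Psmg4. CCAAT was in 13 (34.2%, beside 37.4%). None of the 3 motifs is contained in another. The sequences shown are shorter than the windows searched: those of Psmb5, Psmb6 and Psma6 hold the 250 bases before the start alone, and that of Psme1 also the first 20 bases after it. They run 5′ to 3′ on the gene's strand, and the capitals mark the match. Psme1 lies at chr14:55578244-55578513 on the plus strand and holds the interferon regulatory factor motif in reverse complement, Psmb5 at chr14:54617996-54618245 on the minus strand and Psmb6 at chr11:70525107-70525356 on the plus strand hold TGACNNNGC, and Psma6 at chr12:55383972-55384221 on the plus strand holds CCAAT on each strand.

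Psme1: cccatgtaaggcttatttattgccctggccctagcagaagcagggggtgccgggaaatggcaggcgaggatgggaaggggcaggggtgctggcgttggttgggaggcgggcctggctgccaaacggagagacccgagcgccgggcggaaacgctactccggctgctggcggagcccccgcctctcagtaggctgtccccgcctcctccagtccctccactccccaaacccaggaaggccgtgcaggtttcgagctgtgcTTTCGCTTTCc

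Psmb5: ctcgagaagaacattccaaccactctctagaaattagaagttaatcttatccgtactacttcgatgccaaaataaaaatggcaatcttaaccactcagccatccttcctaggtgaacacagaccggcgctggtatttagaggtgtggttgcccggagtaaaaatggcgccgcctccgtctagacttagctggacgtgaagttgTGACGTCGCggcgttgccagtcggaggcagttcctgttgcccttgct

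Psmb6: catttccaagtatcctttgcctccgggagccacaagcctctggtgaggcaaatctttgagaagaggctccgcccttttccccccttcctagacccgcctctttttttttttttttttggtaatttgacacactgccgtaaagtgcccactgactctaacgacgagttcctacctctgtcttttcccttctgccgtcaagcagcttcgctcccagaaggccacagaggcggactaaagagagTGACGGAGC

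Psma6: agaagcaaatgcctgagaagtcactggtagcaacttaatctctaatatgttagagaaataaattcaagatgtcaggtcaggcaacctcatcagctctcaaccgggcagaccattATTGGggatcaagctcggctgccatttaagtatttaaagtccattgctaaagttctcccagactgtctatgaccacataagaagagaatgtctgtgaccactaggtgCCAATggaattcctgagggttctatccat

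Of the 5 genes with the interferon regulatory factor motif, Psme1 rose throughout and Psmb3 rose at 12 and 24 h in WT cells, while Psmd4, Psmd9 and Psmg4 stood at 0.58, 0.28 and 0.14 at 12 h in WT cells and passed in neither fit at that time. A match describes letters and is no sign of binding.

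The members are spread over the genome. By the array's mm9 positions chromosome 11 holds 9, chromosome 2 holds 6 and chromosomes 7 and 14 hold 4 each. No pair of the 44 had probes within 100 kb of each other, and the close pairs joined a member to a gene left out by the rule, Psme1 with Psme2 and Psmb5 with Psmb11, 12.0 kb apart.

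For 16 members more than 1 probe was detected. At 12 h in WT cells 21 of the 23 other probes had the same sign as the chosen probe and 18 lay within 0.5 of it, and the largest gap was 2.09. Only Psme1 and Psma6 had a 12 h difference in WT cells above that gap, at 2.73 and 2.39. The gap comes from a single gene, so it does not measure the error of the other members. Of the other probes, 16 carried the name of a RefSeq transcript (NM), and all 16 had the same sign as the chosen probe. The genes with the largest gap or with a probe of opposite sign are not named here.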

How the data were processed

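RNA from 16 samples was hybridised to 1-colour Agilent arrays, 4 on each of 4 slides. The KO arrays at 12 h shared no slide with the KO arrays at 0 h, so that comparison lies wholly between slides. The deposited files hold scanner intensity values, processed with Agilent Feature Extraction 10.5.1.1 per the file headers (background subtraction and detrending), and a deposited table of log2 values that matched the scaled signals (correlation 1) and served as an alternative. Control and outlier spots were left out (61 to 108 outlier spots an array). Spots of a probe were averaged as log2 of the processed signal minus the array's 75th percentile, which was 291.6 to 776.0 scanner units. No spot was saturated, and the share of probes well above background was 56.0% to 67.6%. Precision is limited by the number of arrays. Of 41174 probes, 97 without a value on all arrays were left out, 26855 were detected (well above background on both arrays of a group), and the brightest stood for each of 17659 genes.

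Group means of all 16 arrays were fitted with limma 3.58.1 (R 4.3.3, lmFit and eBayes), with Benjamini-Hochberg adjustment over all genes. Replicate numbers follow the scan sessions given in the file headers, and same-numbered arrays deviated together (28 of 28 pairs of groups, median correlation 0.58), so the numbers pair the arrays. The scripts were tested on simulated data. Alternatives were the session as a term, slide as a random block, other scalings and filters, the mean over probes, and leaving out each array.

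Members and lists were chosen with earlier results of these data known. Values on every array are given for the called members with the largest changes (3 in WT, 2 in KO, per comparison and direction), the highest and lowest member of each role group at 12 h over both genotypes, and the 3 with the smallest joint F test p. Of other lists, up to 4 called genes each way at 12 h in WT cells were named, with Psmb8, Psmb9, Psmb10, Psme2, Nfe2l1, Nfe2l2, Ddi2, Pomp, Adrm1 and Usp14. An item that this rule would name is not reported here. Symbols were updated through RefSeq where possible (14244 of 17659 genes).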

Additional observations from a re-analysis of the deposited data

Results flagged for a closer look

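Psmd9, an assembly chaperone of the regulatory particle, had differences from 0 h of opposite sign in the genotypes in both scan sessions. At 12 h its differences from 0 h were 0.03 and 0.52 in WT cells and -0.14 and -0.08 in KO cells. The tested difference of the responses, KO minus WT, was -0.39 ± 0.48 (SE, adjusted p 1, limma). At 24 h they were 0.07 and 0.16 in WT cells and -0.12 and -0.13 in KO cells, with a tested difference of -0.24 ± 0.48 (adjusted p 1). Neither passed the threshold, and the differences of Psmd9 from 0 h passed in neither fit in either genotype.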

How the results depend on the processing

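Of 66 rises called for single members, 18 held under all 25 alternatives, 26 held without any 1 array, and none reversed under an alternative. Counts of members that rose are given in the order 6, 12 and 24 h in WT cells, then in KO cells, and were 14, 16, 7, 12, 11 and 6. With the session as a term, the replicate block, they were 23, 29, 28, 21, 27 and 21 (3, 2, 1, 4, 1 and 0 fell), and 4 rose and 4 fell between 6 and 24 h in WT cells and 4 and 7 in KO cells. The block changed no genotype call. With slide as a random block they were 21, 27, 27, 23, 20 and 20 (4, 2, 1, 4, 2 and 0 fell), and between 6 and 24 h 4 rose and 4 fell in WT and 3 rose and 6 fell in KO cells. Scaled to the median they were 4, 7, 3, 4, 4 and 3. Under quantile normalization they were 6, 6, 5, 4, 5 and 3, with 1 fall at 6 h in WT cells and 1 rise between 6 and 24 h in each genotype. With normexp they were 9, 11, 10, 8, 9 and 7, with 2 falls at 6 h in KO cells and 7 and 4 rises between 6 and 24 h. Without the filter on dim probes they were 9, 13, 5, 9, 7 and 3. With probes well above background on all arrays 1 member fell at 6 h in each genotype, and between 6 and 24 h 1 rose in WT and 1 fell in KO cells. With the deposited log2 values 1 fell between 6 and 24 h in KO cells. The mean over probes moved no count by over 1.5 times. Leaving out 1 array gave 8 to 13, 6 to 17, 2 to 7, 7 to 13, 5 to 12 and 1 to 5 rises, and 0 to 1 falls at 6 h in KO cells, with 0 for the other falls, the later interval and the genotype comparisons. Where an array was left out its group's lone array was taken to vary like the others. Apart from the session term, no share of all genes is given for these alternatives, so their counts do not set the members apart.

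These members changed sign. At 6 h in WT cells, under quantile normalization and with normexp, Psmb3 was -0.11 and -0.19, Psmb4 -0.11 and -0.21 and Psmd2 -0.18 and -0.29. At 12 h in WT cells Psmc3 was -0.22 and -0.24 under these and -0.14 to 0.55 without 1 array, Psmd6 was -0.01 under quantile normalization, Psmd1 was 0.11 under median scaling and -0.38 to 0.01 without 1 array, and Psme3 was 0.23 under median scaling, 0.01 with the slide block and -0.17 to 0.03 without 1 array. The cause was not tested. The medians at 6 h, near 0.6 as scaled here, were 0.05 to 0.09 under both quantile settings. With 2 arrays a group, differences under about 0.7 between genotypes at a single time were within the interval of a typical member. That interval is not adjusted for the number of genes, and a call after adjustment needed a larger difference.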
